A study of Mus musculus with 661 samples.

Results

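Axon guidance ligands and receptors were taken as the genes whose symbols are those of the semaphorins of classes 3 to 7, the plexins, the Slit and Robo genes, the netrins 1 to 5 and the Unc5 genes. The count table held 43 of them among 45771 nuclear genes, namely 20 semaphorins, 9 plexins, 3 Slit genes, 4 Robo genes, 3 netrins and 4 Unc5 genes. Of the 43, 26 were ligands and 17 were receptors. These proteins were named for steering growing nerve fibres, and they also guide endothelial, mesenchymal and immune cells. Semaphorins signal through plexins, and most secreted class 3 semaphorins need a neuropilin as co-receptor, whereas semaphorin 3E can bind plexin D1 directly. Slit proteins bind Robo receptors, and netrins bind Unc5 receptors and neogenin. In bone, semaphorin 3A is known to protect bone mass, semaphorin 4D to restrain osteoblasts, and Slit3 and Robo4 are known from work on bone vessels and on the homing of blood stem cells.

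Single stromal cells of wild-type C57BL/6 mice of both sexes were sorted into plates and sequenced to compare young animals of about 2 months with old animals of about 24 months. The 336 young and 325 old cells came from 6 sorted populations, all negative for CD45 and Ter119. From the endosteum came Sca-1-positive CD51-positive stromal cells (MSC-S, 59 young and 59 old cells), PDGFRα-positive LepR-negative osteoprogenitors (mOPr, 26 and 26), PDGFRα-negative LepR-negative osteoprogenitors (OPr, 44 and 29) and endothelial cells labelled AEC (84 and 82). From the central marrow came LepR-positive stromal cells (MSC-L, 53 and 58) and endothelial cells labelled SEC (70 and 71). The paper defines AEC as CD31-positive Sca-1-high arteriolar cells and SEC as CD31-positive Sca-1-low sinusoidal cells. By index sorting, it describes the endosteal endothelial cells of these plates as dominated by AEC. It describes those of the marrow as mostly SEC. Both labels therefore stand for location and can hold a mixture of types. No mouse is named for any cell, so each age of each population counted as 1 sample and no test was possible. Total counts per cell ran from 58034 to 1503374 with a median of 425611. Levels are the CPM of the summed nuclear gene counts of a group, followed in brackets by the 95% Poisson interval, and the share of cells at 10 CPM or more is followed by its Clopper-Pearson interval. Reads had no molecular identifiers, so these intervals cover counting error only. Genes were compared with each other only as CPM per kb of exon. Library numbers in the labels fell into 3 ranges, with 170, 303 and 188 cells, and SEC cells were found in range 3 alone. A member was said to differ between 2 groups when the ratio was at least 2-fold, with at least 100 counts over both groups in at least 5 cells, at least 10 CPM in at least 25% of cells of 1 group, and the same direction in every range with at least 5 cells of each group and without the cell holding the most counts in each group.

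Marker lists of endothelial cells and of MSC-L were highest in the groups of that label. The 10 endothelial markers summed to 11370 and 11560 CPM in young and old AEC and to 11110 and 12160 CPM in SEC, and to at most 122 CPM in any mesenchymal group, where Eng or Esam led. The 4 sinusoidal markers summed to 12380 CPM in young SEC against 750.2 CPM in young AEC. The 5 MSC-L markers, led by Cxcl12, summed to 57030 and 46840 CPM in young and old MSC-L and to 487 and 1106 CPM in MSC-S. The 5 MSC-S markers, led by Ly6a, summed to 1982 and 2468 CPM in young and old MSC-S and 2388 and 2544 CPM in AEC, which the paper defines by high levels of the Ly6a product Sca-1. All 5 were over 10 CPM in MSC-S and 3 in AEC, and at least 3 of the 5 were carried by 23 of 59 young and 29 of 59 old MSC-S cells against 8 of 84 and 14 of 82 AEC cells. MSC-L markers were not confined to MSC-L, with 6667 and 4210 CPM in young and old SEC. The 5 osteoblastic markers summed to 8670 CPM in young MSC-L, 2431 in young OPr and 1969 in young mOPr, of which Ibsp alone made 8012, 1161 and 699 CPM, so the other 4 markers together were lower in MSC-L than in both osteoprogenitor groups. Old osteoprogenitors differed from young ones. The 5 MSC-L markers summed to 5407 CPM in young OPr and 22490 CPM in old OPr, and to 799 CPM in young mOPr and 20880 CPM in old mOPr. By the clusters in the labels (ICGS, M for mesenchymal and E for endothelial), the MSC-L-like clusters M1 and M2 held 3 of 44 young and 10 of 29 old OPr cells, and 2 of 26 young and 14 of 26 old mOPr cells. Although the gate left out CD45-positive cells, 8 of 29 old OPr cells carried at least 7 of 15 hematopoietic markers. All 15 were above 10 CPM in old OPr and summed to 10730 CPM, led by S100a9, against 5.69 CPM in young OPr. The 4 chondrogenic markers, led by Col2a1 in young OPr and by Comp in old OPr, summed to 35180 CPM in young OPr and 2325 CPM in old OPr, and, led by Comp, to 9556 and 572 CPM in young and old mOPr. Among endothelial cells, 1 old SEC cell carried hematopoietic markers and 7 cells carried at least 7 of 10 mesenchymal markers. Old SEC also differed in makeup, with 44 of 71 cells in the SEC-like cluster E7 and 8 in E3 or E4, which are AEC-like, against 59 of 70 and 0 in young SEC. Mural markers, led by Acta2, summed to 1765 CPM in old OPr and 1712 CPM in old mOPr against 79.2 and 165 CPM in young cells, with 1 old cell of each carrying at least 3 of the 5. For members called with age in MSC-L, OPr, mOPr and SEC, values are also given by cluster, and the comparisons outside M1 and M2 and within M1, M2, M5 and E7 were added after the data had been seen. Genes outside the 43 were compared over all sorted cells alone.

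Every sorted population expressed guidance genes. At least 50 CPM was reached in at least 1 of the 12 groups by 31 of the 43 members. The 43 together took between 1663 CPM in young OPr and 4556 CPM in old SEC. Cells thinned to 100000 counts held a median of 9 members with a count in young MSC-S and 13 in young SEC. Under 10 CPM in all 12 groups were 7 members, Ntn5, Robo3, Sema4g, Sema5b, Sema6c, Slit1 and Unc5d, and of these Unc5d was under 1 CPM throughout. Between these and the 31 lay Plxna3, Plxnb3, Robo2, Sema4a and Sema4f, with highest group levels of 48, 29.1, 15.5, 24 and 15.2 CPM. Per exon length, Robo4 led in SEC at 200.4 CPM per kb in young and 182 in old cells. In young AEC, Sema7a stood at 134 and Sema3g at 126 CPM per kb, and in old AEC Sema3g led at 193. Sema3c led in young MSC-S at 75.8 CPM per kb and Ntn1 in old MSC-S at 60.5. Slit3 led in young MSC-L at 52.4 and Sema7a in old MSC-L at 67.7. So the endothelial groups were led by a receptor of the Robo family or by semaphorins, and the MSC-S groups by secreted ligands. Secreted ligands also led in young MSC-L, in young OPr (Sema3d), in young mOPr (Ntn1) and, with the class 3 semaphorin Sema3g, in old AEC. Exons of 9 members overlap those of another annotated gene, by 23.4% of the exon length for Ntn5 (Sec1) and 10.7% for Plxna1 (Gm26811) and less for the other 7, and counting without strand cannot separate such reads.

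**Figure D1:**
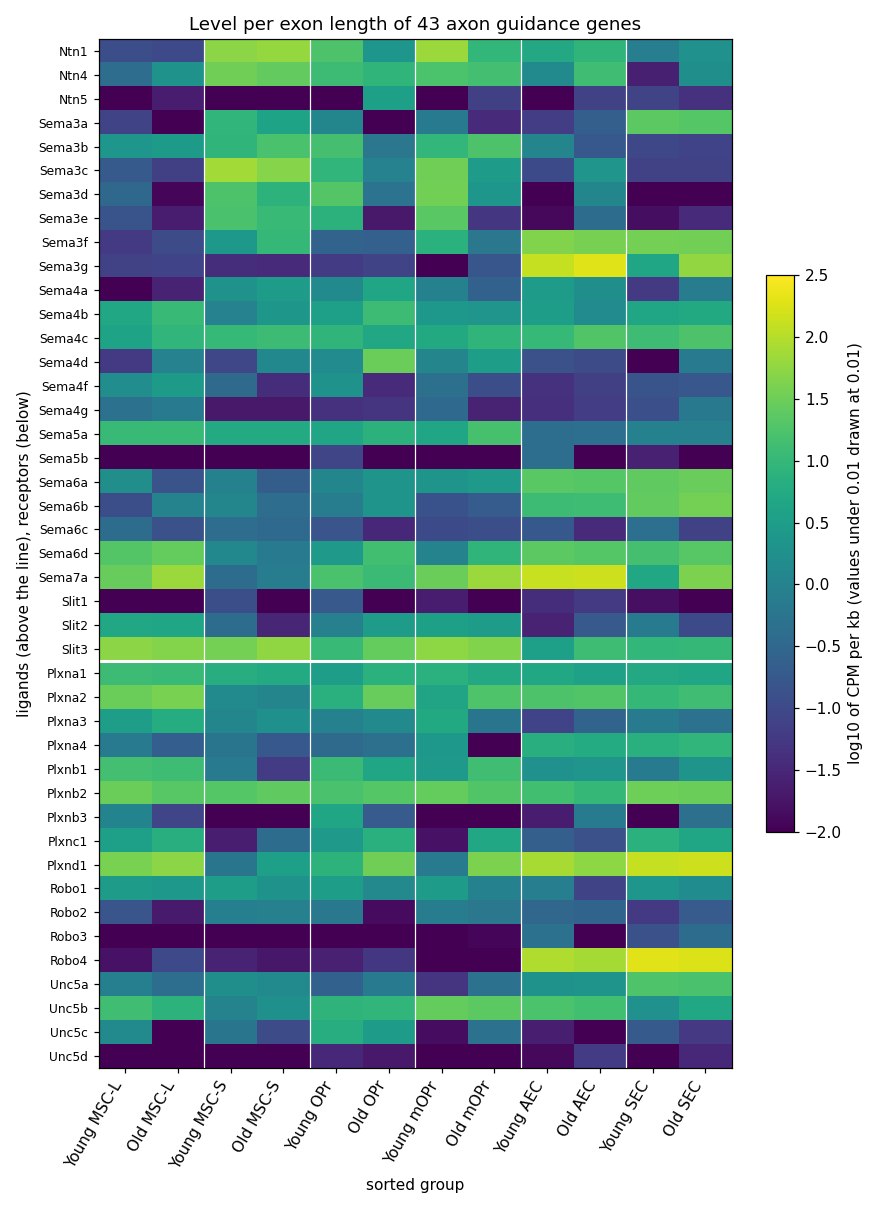
Levels of the 43 members in the 12 sorted groups, as log10 of CPM per kb of exon (colour), with 26 ligands above the white line and 17 receptors below it. Robo4 is bright in endothelial columns, Sema3g in those of AEC and old SEC, and Sema3c, Ntn1 and Ntn4 in MSC-S columns. Unc5d and Slit1 are dark throughout.

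Class 3 semaphorins, the secreted members, split between endothelial and mesenchymal groups. Sema3g, which is known from arterial endothelium, stood at 570.0 CPM (562 to 578) in young AEC and 877 CPM (867 to 886) in old AEC. It was at 20.9 CPM in young SEC, 265 CPM in old SEC and at most 0.721 CPM in the 8 mesenchymal groups. Sema3f, a ligand of neuropilin 2, was between 178 and 228 CPM in the 4 endothelial groups, and in mesenchymal groups it was highest in old MSC-S at 51.4 CPM. Sema3a, a ligand of neuropilin 1, marked SEC at 328 CPM in young and 284 CPM in old cells, with 90.0% and 57.7% of cells at 10 CPM or more. In AEC it was at 0.918 and 3.21 CPM, and MSC-S held the highest mesenchymal levels, 126 CPM in young and 55.6 CPM in old cells. The endothelial Sema3a signal thus lay in SEC and the Sema3g signal mainly in AEC. Sema3c, a ligand of neuropilins and plexin D1, reached 541 CPM (534 to 549) in young MSC-S and 343 CPM (337 to 349) in old MSC-S, and 237 CPM in young mOPr. In MSC-L it was at 1.36 and 0.513 CPM. Sema3e, the plexin D1 ligand that repels vessels, followed the same groups, at 148 and 99.3 CPM in young and old MSC-S and 209 CPM in young mOPr. Sema3d, a secreted relative of Sema3e, was highest in young mOPr at 301 CPM, of which 1 cell held 57%, and at 167 CPM in young OPr, where the top cell held 12.3%. Sema3b was between 42.7 and 82.6 CPM in MSC-S, mOPr and young OPr and lower in the other groups. In sum, young class 3 counts came to 1020.0 CPM in MSC-S, 842 in mOPr, 805 in AEC, 535 in SEC and 392 in OPr, and to 18.5 CPM in MSC-L.

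The membrane-bound semaphorins were distributed differently. Sema6d, a plexin A1 ligand, was high in MSC-L (212 CPM young, 291 CPM old) and in the endothelial groups (154 to 248 CPM), and low in MSC-S (13.1 and 7.30 CPM). Sema6a, a ligand of plexins A2 and A4, was between 183 and 256 CPM in endothelial groups and at most 23.4 CPM in mesenchymal groups. Sema6b was at 104 and 142 CPM in SEC, all in range 3, and at 47.5 and 50.4 CPM in AEC pooled over the 3 ranges. Within range 3 it passed the rule between AEC and SEC in old cells alone. In mesenchymal groups it stayed under 10 CPM. Sema6a and Sema6b were therefore mainly endothelial in these cells, with Sema6d shared by MSC-L. Sema7a, the lipid-anchored semaphorin that binds plexin C1 and β1 integrins, stood at 443 and 472 CPM in young and old AEC, 223 CPM in old MSC-L and 220.3 CPM in old mOPr, and at 1.30 and 2.68 CPM in MSC-S. Sema5a, a transmembrane member with thrombospondin repeats, was a mesenchymal gene here, from 82.8 CPM in young mOPr to 295 CPM in old mOPr, against 7.98 to 17.7 CPM in endothelial groups. Sema4c, a plexin B2 ligand, was present in all 12 groups between 19.1 CPM in young MSC-L and 86.5 CPM in old AEC. Sema4b, another class 4 transmembrane member, reached 62 CPM in old MSC-L and 68.2 CPM in old OPr. Sema4d, a plexin B1 ligand carried by many blood cells, was at most 24.9 CPM outside old OPr, where it stood at 236 CPM.

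Among the other secreted ligands, Slit3 was the broad one. It was between 219.9 CPM in young MSC-S and 344 CPM in old MSC-S across MSC-L, MSC-S and mOPr, and 318 CPM (311 to 326) in young MSC-L with 94.3% of cells at 10 CPM or more (84.3 to 98.8%). Endothelial groups held 20.7 to 76.5 CPM of Slit3. Slit2 was highest in MSC-L, at 121 CPM in young and 117 CPM in old cells, followed by 91.7 and 77 CPM in young and old mOPr and 76.1 CPM in old OPr, against 9.93 and 0.766 CPM in MSC-S. Ntn1, the prototype netrin, divided the stromal populations sharply, with 329 CPM (323 to 335) in young MSC-S, 379.5 CPM (373 to 386) in old MSC-S and 423 CPM in young mOPr, and 0.745 and 0.615 CPM in MSC-L. The share of cells at 10 CPM or more was 79.7% (67.2 to 89%) and 89.8% (79.2 to 96.2%) in young and old MSC-S, and 0 of 53 and 2 of 58 in MSC-L. With every cell thinned to 100000 counts, 86.4% of young MSC-S cells and 5.66% of young MSC-L cells had a count. Ntn4, a laminin-like netrin of basement membranes, was highest in MSC-S, at 124 and 98.1 CPM.

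Receptors differed in how far they were confined to endothelial cells. Robo4, the vascular Robo receptor, stood at 1062 CPM (1049 to 1076) in young SEC, 962 CPM (949 to 976) in old SEC, 493 CPM in young AEC and 412 CPM in old AEC. Single young SEC cells ran from 2.67 to 2899 CPM with a median of 884, and 69 of 70 were at 10 CPM or more. No mesenchymal group exceeded 0.513 CPM, and in both mOPr groups the count was 0, which allows up to 0.206 CPM in young and 0.24 CPM in old cells. Robo1, the receptor best known from nerve and mammary tissue, was present in all mesenchymal groups, from 15.8 CPM in old mOPr to 54.5 CPM in young OPr, and in SEC at 37.8 CPM in young and 25.6 CPM in old cells. Plxnd1, the main semaphorin receptor of vessels, was at 936 and 1054 CPM in young and old SEC and 587 and 398 CPM in AEC. MSC-L shared it, at 283 CPM in young and 380.5 CPM in old cells, whereas young MSC-S and young mOPr held 4.05 and 5.28 CPM. Plxna2, a class 6 semaphorin receptor, was also shared by MSC-L (523 and 683 CPM) and endothelial groups (171 to 323 CPM) and low in MSC-S (24.5 and 19.4 CPM). Plxnd1 and Plxna2 thus joined MSC-L to the endothelium and set it apart from MSC-S. Plxna4 was an endothelial plexin, 83.6 to 127 CPM, and at most 35.4 CPM in mesenchymal groups. Plxna1 was present everywhere, 29.7 to 108 CPM, as was the Sema4c receptor Plxnb2, 75.2 to 252 CPM. Plxnb1, the receptor of semaphorin 4D, was highest in young MSC-L at 135 CPM and at 6.83 and 0.613 CPM in MSC-S. Plxnc1, the receptor of semaphorin 7A, reached 62.1 CPM in young SEC and 59.5 CPM in old OPr.

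The 4 Unc5 genes encode netrin receptors of the repulsive kind, and each had another range. Unc5b, the vascular Unc5 gene, was highest in mOPr at 171 and 148 CPM, followed by young AEC at 106 CPM. Unc5a was found mainly in SEC, at 77.5 CPM (73.8 to 81.3) in young and 68.4 CPM (64.9 to 72) in old cells, and at most 8.77 CPM elsewhere. Unc5c was highest in young OPr at 121 CPM (117 to 125), with 19 of 44 cells at 10 CPM or more. Co-receptors were widely present, with Nrp1 between 34.7 CPM in young mOPr and 935 CPM in young AEC and Nrp2 between 62.1 CPM in young MSC-S and 607 CPM in old SEC.

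**Figure D2:**
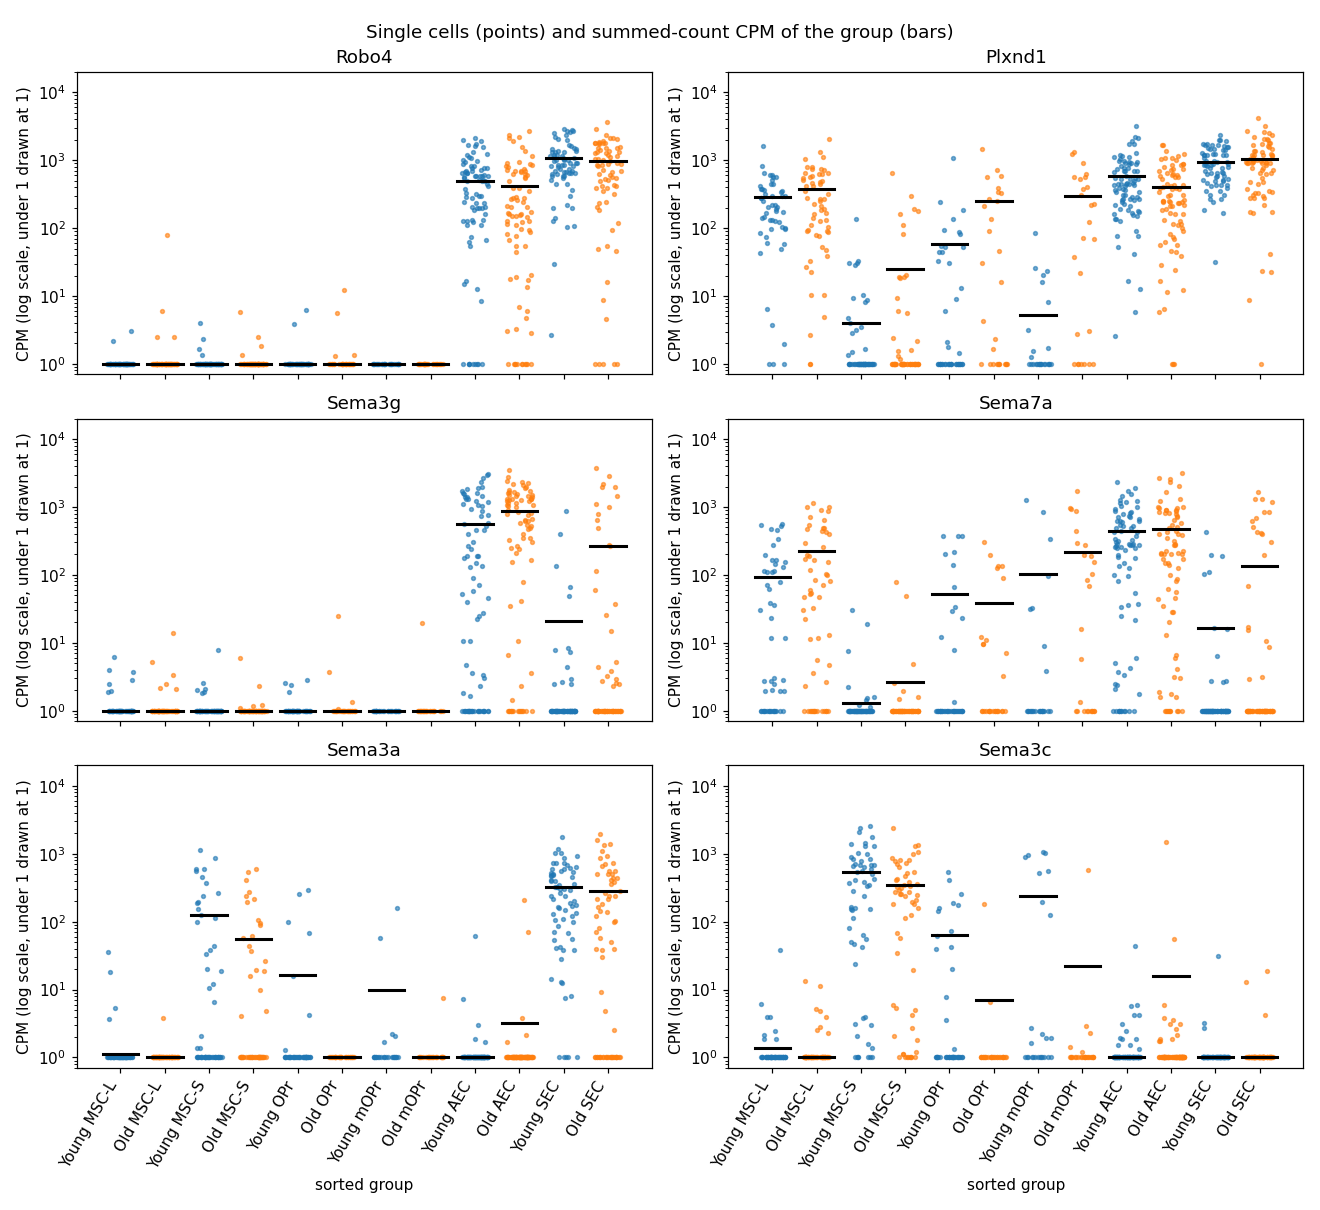
Robo4, Plxnd1, Sema3g, Sema7a, Sema3a and Sema3c in single cells, in CPM on a log scale with values under 1 drawn at 1, young cells in blue and old cells in orange, and the summed-count CPM of each group as a bar. Robo4 cells lie mainly in the 4 endothelial groups and Sema3c cells mainly in MSC-S. Sema3a cells lie mainly in SEC and MSC-S, with group levels of 328 and 126 CPM in young cells.

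The contrast of LepR-positive marrow stroma with Sca-1-positive endosteal stroma compared sorted populations that differ in location and in cell type, which cannot be told apart here. Young MSC-L and MSC-S differed in 16 of the 33 members that passed the low-count filter, 8 higher in MSC-L where the rule took 14.3% of all 13645 genes tested, and 8 higher in MSC-S where it took 8.14%. In old cells it was 17 of 32, 9 higher in MSC-L (background 15.4%) and 8 higher in MSC-S (background 8.73%). Members higher in MSC-S in both ages numbered 7 and were secreted ligands, Ntn1, Ntn4, Sema3a, Sema3b, Sema3c, Sema3d and Sema3e. Members higher in MSC-L in both ages numbered 8, with 4 receptors (Plxna2, Plxnb1, Plxnd1, Unc5b) and 4 ligands (Sema4b, Sema6d, Sema7a, Slit2). The log2 ratio of MSC-L over MSC-S for Ntn1 was -8.79 (-9.57 to -8.11) in young and -9.27 (-10.22 to -8.46) in old cells, and for Sema3c -8.64 and -9.38. For Sema3e it was -6.77 and -8.92, for Sema3a -6.78 and -9.08, for Sema3d -5.68 and -9.42, for Ntn4 -6.34 and -3.74, and for Sema3b -1.95 and -2.51. Of these 7 ratios that of Sema3b was the smallest at both ages. The order of the larger ones is not resolved in old cells, where MSC-L held 2 counts of Sema3d and of Sema3a, 4 of Sema3e and 10 of Sema3c. On the MSC-L side the log2 ratio of Sema7a was 6.15 in young and 6.38 in old cells, that of Plxnd1 6.13 and 3.93, and that of Plxna2 4.42 and 5.14. Plxnb1 had 4.30 and 7.62, Sema6d 4.01 and 5.32, Slit2 3.60 and 7.25, Unc5b 3.63 and 2.11, and Sema4b 2.26 and 2.20 on this scale. Sema4c passed the rule in young cells alone (-1.29), Sema3f in old cells alone (-6.51) and Sema5a in old cells alone (1.03), and the difference between ages was not tested. Median-of-ratios size factors shift these ratios by 0.34 in young and 0.39 in old cells, after which Sema5a was under 2-fold and every other member named here kept its side of it. Of the 7 ligands higher in MSC-S, 5 were among the genes the authors clustered mesenchymal cells on, as were Plxna2, Plxnd1 and Sema6d.

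Young OPr were compared with young MSC-S as well. Against young MSC-S, 6 of 34 members tested were higher in OPr (background 6.78%) and 5 were higher in MSC-S (background 7.87%). Unc5c, which no other group held at such a level, was at 121 CPM in OPr and 10.7 CPM in MSC-S, a log2 ratio of 3.50 (3.35 to 3.66). Plxnb1 (4.02), Plxnd1 (3.87), Plxna2 (2.33), Unc5b (3.00) and Sema7a (5.34) were higher in OPr as they were in MSC-L, although OPr are endosteal cells. Of the young OPr cells, 3 were in the MSC-L-like cluster M1. The MSC-L markers summed to 5407 CPM in young OPr against 487 CPM in young MSC-S. Without these 3 cells Plxna2 and Plxnd1 were lower in young OPr, at levels given below with age. Ntn1 (-1.56), Ntn4 (-1.47), Sema3a (-2.95), Sema3c (-3.07) and Slit3 (-1.74) were lower in OPr than in MSC-S. Both comparisons share the young MSC-S cells, so they are not independent of each other. Slit3 set OPr apart from MSC-L, with 65.8 CPM in young OPr against 318 CPM in young MSC-L.

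AEC and SEC were compared within library-number range 3, where 24 young and 23 old AEC cells lay. The 2 populations differ in location and in the mixture of endothelial types, which cannot be told apart here. In young cells 3 of 25 members tested were higher in AEC (background 9.92%) and 6 were higher in SEC (background 11.6%). In old cells the counts were 7 of 29 (background 8.91%) and 8 (background 11.2%). Sema3g, Sema7a and Unc5b were higher in AEC at both ages. Sema3g was at 455 CPM in AEC and 20.9 CPM in SEC in young cells (log2 ratio 4.44, 4.30 to 4.59), and at 556 and 265 CPM in old cells (1.07, 1.01 to 1.13). The log2 ratio of Sema7a was 4.39 in young and 1.77 in old cells, and that of Unc5b 2.47 and 2.30. Old SEC included 8 cells of the AEC-like clusters E3 and E4, whose high levels of Sema3g and Sema7a are given below with age. Sema3a, Unc5a, Plxnc1 and Plxnb2 were higher in SEC at both ages. Sema3a had a log2 ratio of AEC over SEC of -9.46 in young and -4.65 in old cells, where 1 AEC cell held 98.6% of the AEC counts. Unc5a had -3.24 and -4.12, Plxnc1 -3.95 and -3.58, and Plxnb2 -1.99 and -1.33. Of these receptors, Plxnb2 was present in all 12 groups and Plxnc1 also in mesenchymal groups, as given above. In young cells Robo1 (-3.03) and Slit3 (-2.15) were also higher in SEC. In old cells Plxnd1 (-1.34), Sema4b (-2.93), Sema6b (-2.30) and Robo4 (-1.0) were higher in SEC, and Ntn1 (2.87), Ntn4 (4.21), Plxna2 (1.18) and Slit3 (1.56) in AEC. Plxna2 was under 2-fold without the top cell of each group, at 0.92. Slit3 rested on few cells there, since 1 old AEC cell held 61.9% of the AEC counts and the log2 ratio was 0.41 without the top cell of each group. Robo4 lay just inside the 2-fold limit and left it with size factors, which shift the old ratios by -0.19.

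Across the ICGS clusters of at least 10 cells, members varied within the sorted populations as well. Clusters were built by the authors from the same counts, so these levels are descriptive, and 14 members were among the clustering genes. Among members the clustering did not use, Slit3 divided the MSC-S-like clusters, with 579 CPM in M7 and 535 CPM in M9 against 24.4 CPM in M15 and 30.1 CPM in M16. Sema3d ran the other way, with 299 CPM in M15 and 342 CPM in M16 against 6.29 CPM in M7 and 0.119 CPM in M9. M12, also MSC-S-like, lay between, with 205 CPM of Slit3 and 53.9 CPM of Sema3d. Age differed among these clusters too, since all 10 cells of M9 were old and all 17 of M15 were young, with 6 of 15 old in M7 and 21 of 36 in M16. Library-number range differed as well, with M7 mostly in range 1 and M16 mostly in range 2, and its part was not tested. Among the 16 clusters, Robo1 was highest in M16 at 95 CPM and Slit2 in M2 at 166 CPM. Of the OPr-like clusters, M3 held 276 CPM of Sema3d and 0.093 CPM of Slit3, and M5 held 17.3 and 203 CPM. M5 also held 175 CPM of Sema4d. The 8 old OPr cells with hematopoietic markers were all in M5, and their high level of Sema4d is given below. In endothelial clusters Robo4 went from 282 CPM in E3 and 506 CPM in E4 to 828 CPM in E6 and 1216 CPM in E7. Plxnd1, which the endothelial clustering did not use, had 424, 525, 984 and 1099 CPM in the same clusters. Library-number range was not held fixed here. E7 held SEC cells, all of range 3, apart from 2 young AEC cells, while E3 and E4 held mainly AEC cells, which lay in 3 ranges. Within range 3, Robo4 and Plxnd1 passed the rule as higher in SEC than in AEC in old cells alone. The part of library-number range in these levels was not tested. Unc5b separated the AEC-like clusters, with 26.9 CPM in E3 and 184 CPM in E4, and so did Plxnb2 with 35.5 and 145 CPM. Plxna4 went the opposite way, 139.8 CPM in E3 and 58 CPM in E4. Among clustering genes, Sema3g was at 1298 CPM in E3 and 14.7 CPM in E7, Sema3c at 1190.2 CPM in M7, and Unc5c at 259 CPM in M3.

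Age was compared within each sorted population. In MSC-L, 3 of 26 members tested rose, Sema4b, Sema4c and Sema7a, where the rule took 3.37% of 13143 genes as higher in old cells, and none fell, where it took 3.31%. Sema7a went from 92.7 CPM (88.8 to 96.7) to 223 CPM (217 to 230.2), a log2 ratio of 1.27 with 1.68 in library-number range 1 and 1.06 in range 2. The share of cells at 10 CPM or more was 49.1% (35.1 to 63.2%) in young and 65.5% (51.9 to 77.5%) in old cells, and single cells reached 570.2 and 1155 CPM, so the groups overlapped widely. Sema4b went from 27 CPM (24.9 to 29.2) to 62 CPM (58.5 to 65.6), with log2 ratios of 1.46 and 1.08 in the ranges and 30.2% and 56.9% of cells at 10 CPM or more. Sema4c went from 19.1 to 41.6 CPM, but the log2 ratio was 2.33 in range 1 and 0.07 in range 2. When MSC-L-like cells of M1 and M2 replaced the sorted cells, Sema4c was at 34.7 CPM in young and 34.6 CPM in old cells, Sema7a at 108 and 198 CPM, and Sema4b at 23.9 and 63.9 CPM. Sema4b was thus past 2-fold in both ways of grouping, while Sema4c and Sema7a were under 2-fold over all cells of both clusters. Sorted MSC-L also differed in makeup, with 39 of 53 young and 33 of 58 old cells in M1 and 12 and 23 in M2. In sorted MSC-L of M1, 2 of 23 members rose (background 4.91%), Sema4b at 26.9 and 68 CPM and Sema7a at 81 and 239 CPM, and none fell (background 4.8%). In those of M2, 5 of 18 rose (background 18.1%), Plxna3, Plxnd1, Robo1, Sema4c and Slit2, and 2 fell (background 17.3%), Plxnb1 and Unc5b, while Sema4b (0.71) and Sema7a (0.44) were under 2-fold. Of the osteoblastic markers, Ibsp stood at 8012 CPM in young and 2829 CPM in old MSC-L, while at least 3 of the 5 were carried by 26 of 53 young and 40 of 58 old cells, and their part in these differences was not tested. Unc5c missed the rule by its share of cells. It stood at 26.5 CPM in young MSC-L with 13 of 53 cells (24.5%) at 10 CPM or more, and at 3 counts with 0 of 58 cells in old MSC-L (log2 ratio -7.43, -9.71 to -5.88). In all cells of M1 and M2, whatever their sort, it stood at 23.4 CPM in young and 14.7 CPM in old cells, where 1 cell held 64.1% of the counts, so the difference was under 2-fold there. The leading MSC-L members did not pass, with Plxna2 at 0.38, Plxnd1 at 0.43, Sema6d at 0.46, Slit3 at -0.17 and Slit2 at -0.05 on the log2 scale.

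In MSC-S, 1 of 33 members tested rose (background 1.96%) and 1 fell (background 2%), counts near those backgrounds. Sema3f rose from 13.2 CPM (12 to 14.4) to 51.4 CPM (49.1 to 53.6), with 10 of 59 young and 21 of 59 old cells at 10 CPM or more and log2 ratios of 0.46 and 1.89 in ranges 1 and 2. Sema3a fell from 126 CPM (122 to 129) to 55.6 CPM (53.3 to 57.9), with log2 ratios of -1.75 and -0.98 in the ranges. Of the 7 ligands higher in MSC-S than in MSC-L at both ages, 5 stayed within 2-fold, with log2 ratios of 0.20 for Ntn1, -0.34 for Ntn4, 0.85 for Sema3b, -0.66 for Sema3c and -0.58 for Sema3e, and the others were Sema3a and Sema3d. Sema3d was just past 2-fold at -1.08 without passing the rule, since the direction turned between ranges (0.93 and -1.55) and 1 young cell held 51.8% of the young counts. Sema3a and Sema3f were both mesenchymal clustering genes. Sorted MSC-S also differed in makeup, with 0 young and 10 old cells in M9, 5 and 0 in M15 and 14 and 21 in M16. Chondrogenic markers summed to 5288 CPM in young and 2770 CPM in old MSC-S, and osteoblastic markers to 438 and 172 CPM. The part of makeup and of these markers in the differences was not tested.

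**Figure D3:**
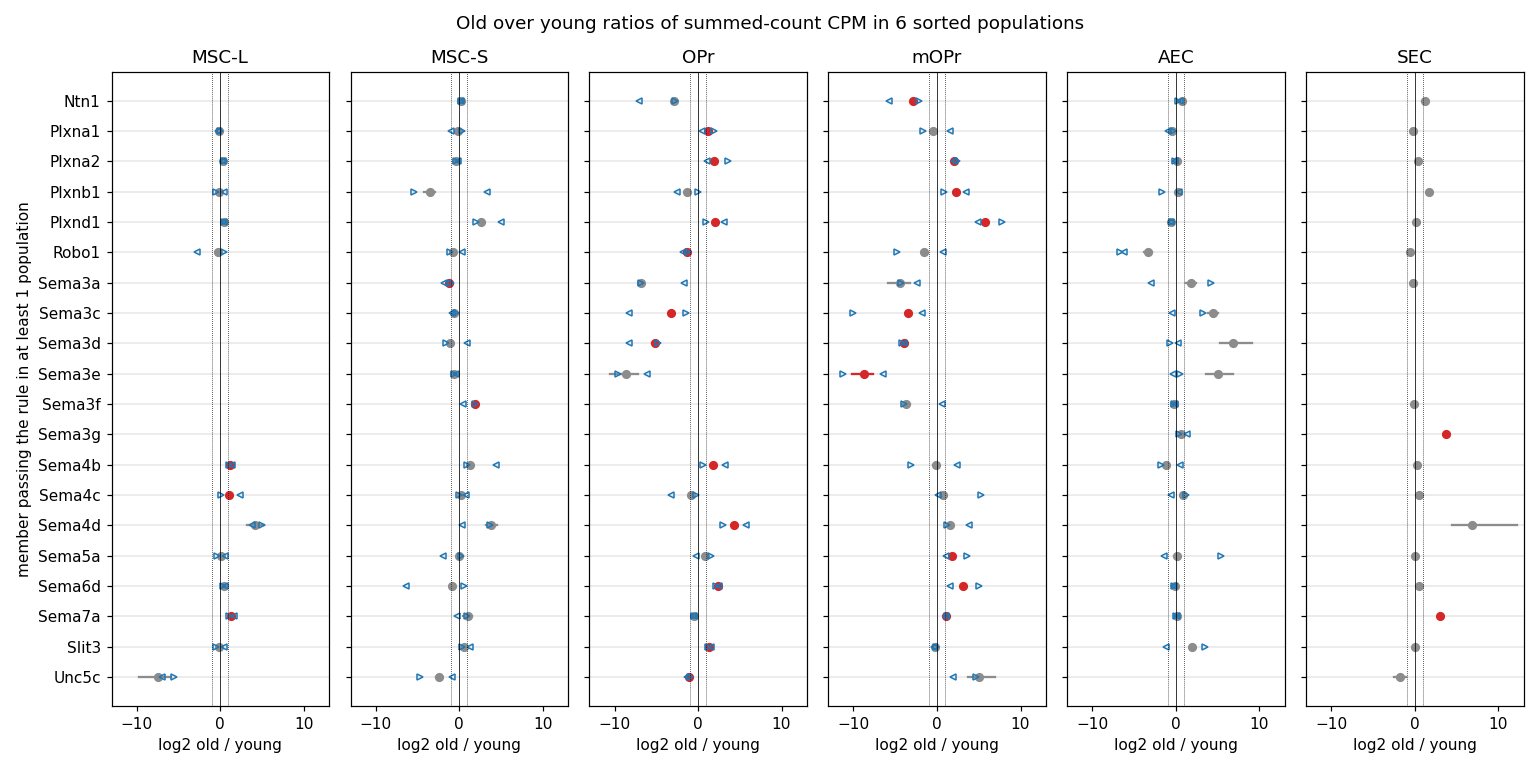
Log2 ratio of old over young summed-count CPM for the members that passed the rule in at least 1 population, 1 panel per population. Circles with 95% counting intervals are red where the rule was passed and grey otherwise, and blue triangles are library-number ranges 1 (left-pointing) and 2 (right-pointing). OPr holds 11 red circles, mOPr 10 and AEC 0, and dotted lines mark 2-fold.

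Sorted OPr and mOPr held most of the age differences, and the numbers of their cells in each cluster differed between ages, as they did in the other 4 populations. In OPr, 7 of 32 members tested rose (background 9.16%) and 4 fell (background 8.29%). Sema4d went from 11.5 CPM to 236 CPM (229.7 to 243), a log2 ratio of 4.36. Of the 8 old OPr cells with hematopoietic markers, 7 were at 10 CPM or more and the 8 together stood at 919 CPM, while the other 21 old cells stood at 8.05 CPM, below the young level. Plxnc1 had the same split, 237 CPM in the 8 cells and 0.25 CPM in the others, without passing the rule, as 10.3% of old cells were at 10 CPM or more. The old OPr signal of Sema4d therefore lay in the cells with blood markers. Plxna2 went from 123 to 479.9 CPM (1.96), Plxnd1 from 59 to 249 CPM (2.07) and Sema6d from 28.4 to 144 CPM (2.34). Sema4b (1.80), Slit3 (1.33) and Plxna1 (1.20) rose as well. With all cells of the OPr-like clusters in place of sorted OPr, the ratios of Slit3 (-0.58), Plxna1 (-0.40), Plxnd1 (-0.78) and Sema6d (-0.45) reversed. Those of Plxna2, Sema4b and Sema4d did not. In M5 without the 8 cells, the ratios of Slit3 and Sema6d were -0.40 and -0.76. The 10 old OPr cells in M1 and M2 held 951 CPM of Plxna2, 507 of Plxnd1, 304 of Sema6d, 315 of Slit3, 98 of Sema4b and 118 of Plxna1. Outside M1 and M2 the clusters still differed between ages, with 15 cells in M3, 7 in M4, 14 in M5 and 5 in M15 among 41 young cells, and 1 in M3, 3 in M4 and 15 in M5 among 19 old cells. The 8 old cells with blood markers were all in M5. With the 41 young and 19 old OPr cells, Sema4d alone rose (background 7.58%), and 5 of 30 members fell (background 15%), Plxnb1, Robo1, Sema3c, Sema3d and Unc5c, a share near the background. With the 8 cells left out as well, 11 old cells remained, and young and old OPr stood at 58.1 and 174 CPM for Plxna2, 46.3 and 20.4 for Plxnd1, 18.6 and 26.5 for Sema6d, 42.8 and 79.2 for Slit3, 21.8 and 80.3 for Sema4b, and 17.4 and 49.1 for Plxna1. There 5 of 28 members rose (background 13%), Plxna1, Plxna2, Sema4b, Sema5a and Slit2, and 4 fell (background 12.7%), Plxnd1, Robo1, Sema3c and Sema3d. In M5 alone, again without the 8 cells, 14 young and 7 old cells gave 3 of 16 members that rose (background 26.4%), Ntn4, Plxna2 and Sema5a, and 5 that fell (background 19.8%), Plxna1, Plxnb1, Plxnd1, Robo1 and Sema3b. Plxna2 thus passed in both comparisons without blood-marked cells, with 1 old cell holding 61.6% and 65.5% of the old counts. Its log2 ratio was 0.74 and 0.76 without the top cell of each group, and size factors, which shift the ratios in M5 by 0.30, took it under 2-fold there. Plxnd1 turned from a rise over all OPr to a fall. Plxna2, Plxnd1 and Sema6d were among the genes that defined the clusters, so leaving out M1 and M2 is not independent of them, but Slit3, Sema4b and Plxna1 were not. Sema3d fell from 167 CPM (162 to 171) to 4.54 CPM (3.68 to 5.53) over all OPr, and Sema3c from 64.7 to 6.97 CPM, Robo1 from 54.5 to 21.8 CPM and Unc5c from 121 to 57.8 CPM. Without the 8 cells alone, the log2 ratios of Robo1 and Unc5c were under 2-fold, at -0.91 and -0.65, and without M1 and M2 as well they were -4.34 and -0.15. The 15 young cells of M3 held 296 CPM of Sema3d and 275 CPM of Unc5c, and in M5 without the 8 cells young and old levels were 1.29 and 23.6 CPM of Sema3d, 7.26 and 59.9 CPM of Unc5c, 113 and 0 CPM of Sema3c and 96.8 and 0.269 CPM of Robo1. Sema3c and Sema3d were below the low-count filter in that comparison. Age and cluster makeup cannot be told apart for the falls of Sema3d and Unc5c. The summed chondrogenic markers were lower in old OPr as given above. The 5 Schwann and neural markers, led by Mbp in young and S100b in old cells, summed to 635 CPM in young OPr, with 2 cells carrying at least 3 of the 5, and to 116 CPM in old OPr, with 0 such cells. The part of both lists in these differences was not tested.

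In mOPr, 6 of 29 members tested rose (background 9.97%) and 4 fell (background 9.66%). The 4 that fell were secreted ligands that were higher in young MSC-S than in young MSC-L. Ntn1 fell from 423 CPM (413 to 434) to 58.7 CPM (54.5 to 63.1), with 14 of 26 young and 4 of 26 old cells at 10 CPM or more. Sema3e fell from 209 to 0.481 CPM, with 13 of 26 young and 0 of 26 old cells at 10 CPM or more. Sema3c fell from 237 to 21.9 CPM, of which 1 old cell held 98.5%, and Sema3d from 301 to 19.9 CPM. For Sema3d, 1 young cell held most of the young counts, as given above. Outside M1 and M2 the old values were 119 CPM for Ntn1, 0.169 for Sema3e, 46 for Sema3c and 41.4 for Sema3d, against 445, 219.7, 249 and 317 CPM in young cells. All 4 passed the rule there, among 7 that fell of 27 tested (background 19.1%), with 24 young and 12 old cells. The other 3 were Plxnb2, Robo1 and Slit3. This comparison set different clusters against each other, since all 12 old cells were in M5, while 7 of the 24 young cells were in M5, 16 in MSC-S-like clusters and 1 in M4. The 16 young MSC-S-like cells held 597 CPM of Ntn1, 312 of Sema3e, 366 of Sema3c and 454 of Sema3d. In M5 alone, young and old levels were 154 and 119 CPM for Ntn1, 21.6 and 0.169 for Sema3e, 0.561 and 46 for Sema3c and 31.4 and 41.4 for Sema3d, and none of the 4 passed, with Sema3e below the low-count filter. Of 20 members tested in M5, 5 rose (background 28%), Ntn4, Plxnd1, Sema3b, Sema6a and Sema7a, and 6 fell (background 21.7%), Plxnb1, Plxnb2, Robo1, Slit2, Slit3 and Unc5b. Age and cluster makeup therefore cannot be told apart for these falls in sorted mOPr, and the part of chondrogenic cells, whose markers were also lower in old mOPr, was not tested. Plxnd1 rose from 5.28 to 293 CPM (5.79), Sema6d from 10.7 to 92.8 CPM (3.12), Plxnb1 from 25.4 to 125 CPM (2.30) and Plxna2 from 73.1 to 310.0 CPM (2.08). Sema5a rose from 82.8 to 295 CPM (1.83) and Sema7a from 102 to 220.3 CPM (1.11). These 6 were all higher in old MSC-L than in old MSC-S, and 14 of the 26 old mOPr cells were in M1 and M2. In those 14 cells Plxnd1 stood at 513 CPM, Plxna2 at 544, Plxnb1 at 236, Sema6d at 153, Sema7a at 289 and Sema5a at 242 CPM. Outside these clusters Plxnb1 was at 24.7 CPM in young and 0.846 CPM in old cells, Plxna2 at 51.8 and 50.1, Plxnd1 at 3.53 and 48.2, Sema6d at 5.84 and 26.2, and Sema7a at 99.6 and 144 CPM. Sema5a, at 66.8 and 354 CPM, was 1 of 2 members that rose there (background 9.63%), beside Sema3b. The other 5 did not pass there, although Plxnd1 and Sema6d were past 2-fold, with 1 old cell holding 81% and 92.9% of the old counts. Sema5a had no count in the 16 young MSC-S-like cells, and in M5 it stood at 243 CPM in young and 354 CPM in old cells, under 2-fold. Median-of-ratios size factors shift the age ratios by 0.17 in OPr and 0.13 in mOPr, and among the calls of both populations this took Sema7a in mOPr alone under 2-fold. Outside M1 and M2 the shifts were -0.14 and -0.10.

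In AEC, none of 33 members tested passed in either direction, where the rule took 0.862% of genes as higher in old and 1.46% as higher in young cells. Log2 ratios of old over young were 0.62 (0.60 to 0.65) for Sema3g, 0.09 (0.06 to 0.12) for Sema7a, -0.26 (-0.29 to -0.23) for Robo4 and -0.56 (-0.59 to -0.53) for Plxnd1. Past 2-fold without passing were 12 of the 33 members, where 25% of all 14042 genes tested were past 2-fold. These were Ntn4, Plxnb3, Sema3a, Sema3c, Sema3d, Sema3e, Slit2 and Slit3 towards old and Robo1, Robo3, Sema3b and Sema4b towards young cells. Only 2 of 82 old cells were at 10 CPM or more of Sema3c and 2 of Sema3a, and the highest stood at 1466 and 209 CPM. Mesenchymal markers summed to 194 CPM in young and 376 CPM in old AEC, and their part in these differences was not tested. Robo1 was at 14 CPM in young and 1.41 CPM in old AEC, with 9 of 84 and 2 of 82 cells at 10 CPM or more. Slit3 was at 20.7 and 76.5 CPM, with ratios of -1.19, 3.47 and 3.77 in the 3 ranges, and Ntn4 was at 5.36 and 48.3 CPM with 7 of 84 and 17 of 82 cells at 10 CPM or more.

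In SEC, 2 of 29 members tested rose (background 2.73%) and none fell (background 1.96%), and SEC cells lay in 1 range, so no second range could repeat the result. Sema3g rose from 20.9 CPM (19.1 to 22.9) to 265 CPM (258 to 272), with 5 of 70 young and 18 of 71 old cells at 10 CPM or more. Sema7a rose from 16.5 CPM (14.8 to 18.3) to 135 CPM (130.4 to 140.4), with 7 and 18 such cells. In both genes most cells of both ages were under 10 CPM, and at 18 of 71 old cells each was just over the limit of 25%. Without the 4 SEC cells with mesenchymal markers 1 of the 2 passed. The 8 old SEC cells in E3 and E4 held 1693 CPM of Sema3g and 617 CPM of Sema7a, and the 19 old cells outside E3, E4 and E7 held 274 and 204 CPM. Within E7, Sema3g was at 24.4 CPM in 59 young and 1.55 CPM in 44 old cells, and Sema7a at 4.33 and 18.9 CPM. In E7 none of 23 members tested passed in either direction (backgrounds 3.63% and 3.17%). Sema3g and Sema7a were among the genes on which endothelial cells were clustered, so membership of E7 is not independent of them. The 5 arterial markers, led by Ly6a, summed to 313 CPM in young and 1015 CPM in old SEC, with 4 and 14 cells carrying at least 3 of the 5, and their part in the result was not tested. Other members at high levels in SEC were within 2-fold, with log2 ratios of -0.14 for Robo4, 0.17 for Plxnd1, -0.21 for Sema3a and -0.18 for Unc5a. Of these, Robo4 and Plxnd1 were high in AEC as well. The cells at 10 CPM or more of Sema3a nevertheless went from 63 of 70 young to 41 of 71 old SEC cells.

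In the comparisons by age and between populations, leaving aside those within clusters, some members that passed the low-count filter lay close to the 2-fold limit, with log2 ratios from 0.88 to 1.12 of either sign. Inside the rule with age were Unc5c in OPr (-1.07), Sema7a in mOPr (1.11) and Sema4c in MSC-L (1.12). Short of 2-fold were Plxnc1 in MSC-L (0.95), Plxna3 in MSC-L (0.89) and Sema6a in OPr (0.88), and Sema7a in MSC-S (1.04), Unc5a in MSC-L (-1.08) and Sema3d in MSC-S (-1.08) were past 2-fold without meeting the other conditions. Between populations, Robo4 (-1.0) and Sema3g (1.07) in old AEC and SEC and Sema5a in old MSC-L and MSC-S (1.03) were inside. Short of 2-fold were Unc5a (-0.99), Sema5a (0.93) and Plxna1 (0.92) in young MSC-L and MSC-S, Plxna1 in old ones (0.98), Plxna1 in young OPr and MSC-S (-0.94) and Plxna2 in young AEC and SEC (0.94), and Sema3e (-1.02) and Sema6d (1.12) in young OPr and MSC-S were past 2-fold without meeting the other conditions.

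For 13 pairs of a ligand and a receptor, cells with both at 10 CPM or more were counted in the 12 groups. Of the 156 counts, 112 were under 10% of the cells of the group and 11 over 40%, and those over 40% belonged to Sema3g and Plxnd1, Sema6a and Plxna2, Sema3a and Plxna4, Sema6d and Plxna1 and Slit3 and Robo1. Sema3g and Plxnd1 were found together in 50 of 84 young and 60 of 82 old AEC cells, and in 5 of 70 young and 17 of 71 old SEC cells. Sema3a and Plxna4 were together in 37 of 70 young and 29 of 71 old SEC cells. Sema6a and Plxna2 met in 56 of 70 young SEC and 56 of 84 young AEC cells. In MSC-L the pair of Slit3 and Robo1 was found in 22 of 53 young and 14 of 58 old cells, and that of Sema6d and Plxna1 in 27 of 53 young and 28 of 58 old cells. Ntn1 and Unc5b were together in 8 of 59 young and 12 of 59 old MSC-S cells and in 5 of 26 young mOPr cells, and Sema7a and Plxnc1 in 6 of 53 young and 8 of 58 old MSC-L cells and in 2 of 84 young AEC cells. Sema3c and Plxnd1 were together in 5 of 59 young MSC-S cells and 1 of 70 young SEC cells, with the ligand mainly in endosteal stroma and the receptor mainly in endothelium and MSC-L. These counts depend on depth and on the level of each gene, and no excess over independent detection was tested.

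Other genes of guidance signalling were read from 4 lists. Of 14 co-receptors and other receptors, the numbers higher and lower in old cells, of those tested, were 0 and 0 of 8 in MSC-L, 0 and 1 of 9 in MSC-S, 2 and 0 of 9 in OPr, 3 and 0 of 8 in mOPr, 0 and 0 of 9 in AEC and 0 and 0 of 8 in SEC. For 37 intracellular transducers they were 2 and 1 of 32 in MSC-L, 2 and 0 of 35 in MSC-S, 6 and 1 of 34 in OPr, 4 and 5 of 34 in mOPr, 0 and 1 of 34 in AEC and 2 and 1 of 33 in SEC. For 22 ephrins and Eph receptors they were 0 and 0 of 11 in MSC-L, 0 and 0 of 14 in MSC-S, 0 and 2 of 13 in OPr, 0 and 0 of 14 in mOPr, 0 and 0 of 14 in AEC and 2 and 0 of 11 in SEC, and for 7 repulsive guidance and FLRT genes 1 and 0 of 3 in MSC-L, 0 and 0 of 6 in MSC-S, 0 and 1 of 5 in OPr, 0 and 0 of 5 in mOPr, 0 and 0 of 3 in AEC and 1 and 0 of 4 in SEC. The shares of all genes that the rule took, with age and between populations, are those given above for each comparison, and no list was compared with them by a test. Co-receptors between young MSC-L and MSC-S were 5 higher and 0 lower of 9 tested (backgrounds 14.3% and 8.14%), with a median log2 ratio of 2.44 against 0.34 over all genes tested. Among the 5 were Itga1 (5.33), Chl1 (4.40), Nrp1 (2.76) and Nrp2 (2.44), and in old cells the list had 6 higher and 0 lower of 9 tested (median 1.83 against 0.39). So the neuropilins were higher in MSC-L, where class 3 ligands were nearly absent, than in MSC-S, where they were abundant. Intracellular transducers went both ways, 6 higher and 6 lower of 34 tested in young and 7 higher and 7 lower of 35 tested in old cells, with Mical2 (-6.67), Rnd1 (-6.36) and the actin-linked Ablim1 (-4.81) lower and the actin regulator Enah (4.07) higher in young MSC-L. Efnb2, the arterial ephrin, was lower in MSC-L than in MSC-S at both ages (-8.96 and -7.28), and Efna5 was higher (2.79 and 4.38). Ephrins and Eph receptors were 3 higher and 2 lower of 15 tested in young and 3 higher and 1 lower of 14 tested in old cells, and repulsive guidance and FLRT genes 0 higher and 1 lower of 6 tested and 0 higher and 1 lower of 4 tested, Rgma in both. Between young OPr and MSC-S the 4 lists, in the order above, had 1 higher and 0 lower of 8 tested, 5 higher and 6 lower of 35 tested, 3 higher and 0 lower of 16 tested and 0 higher and 1 lower of 6 tested, with Ephb2 (3.36), Efna1 (2.53) and Epha2 (2.46) higher in OPr. Between young AEC and SEC they had 2 higher and 1 lower of 9 tested, 4 higher and 3 lower of 33 tested, 3 higher and 1 lower of 12 tested and 1 higher and 1 lower of 4 tested, and in old cells 1 higher and 1 lower of 9 tested, 4 higher and 1 lower of 33 tested, 2 higher and 1 lower of 9 tested and 0 higher and 1 lower of 3 tested. L1cam (5.63 and 5.90) and Efnb2 (3.75 and 1.53) were higher in AEC at both ages, and Srgap1, a Slit and Robo pathway GTPase regulator, was higher in SEC at both (-2.60 and -2.92). With age, Nrp1 rose in mOPr (3.68) and Nrp2 in OPr (1.78), while Nrp2 went from 309 to 231 CPM in mOPr and Nrp1 from 158 to 219 CPM in OPr. Young MSC-L held 711 CPM of Nrp1 and 336 CPM of Nrp2. The MSC-L-like clusters M1 and M2 held 14 old and 2 young mOPr cells and 10 old and 3 young OPr cells. The part of these cells in the rises was not tested. Efnb2, 1 of the 5 arterial markers given above, rose in SEC (2.53), with 26.8% of old cells at 10 CPM or more, just over the limit of 25%, and the part of the AEC-like old SEC cells was not tested. Neo1, the netrin receptor neogenin, fell in old MSC-S (-1.27), from 140.4 to 58.4 CPM.

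Promoter sequence was looked at for 5 members chosen after their levels were seen, the endothelial pair Robo4 and Sema3g and the mesenchymal trio Sema3c, Sema3d and Sema3e, which lie on the same chromosome. RefSeq promoters (GRCm38.p6) matched 36 of the 43 members with 49 entries, and the 250 bases before each start were searched on both strands. The ETS core GGAAG was in 69.4% of member promoters and 64.1% of all 32851. The RUNX motif TGTGGT was in 12.2% and 14%, the AP-1 motif TGANTCA in 6.12% and 6.75%, the TEAD motif GGAATG in 8.16% and 12.6%, and the SP motif GGGCGG in 65.3% and 32.7%. A promoter can hold several of these, and a match is a description of the letters only. The windows shown, all on the plus strand of GRCm38, are chr9:37401722-37401971 for Robo4, chr14:31217623-31217872 for Sema3g, chr5:17574566-17574815 for Sema3c, chr5:12382916-12383165 for Sema3d and chr5:14025026-14025275 for Sema3e. RefSeq starts can differ from those of the gene annotation used for exons. The Sema3c window lies wholly inside the annotated gene, 285 to 534 bases after its start, the Robo4 and Sema3g windows reach past the annotated start and the Sema3d and Sema3e windows end before it, so the windows do not cover matching positions. Capitals mark GGAAG or its complement CTTCC, with 2 matches in Robo4, 2 in Sema3g, 2 in Sema3e, 1 in Sema3d and 0 in Sema3c, so this core did not separate the pair from the trio. The G and C share was 78.4% in Sema3c, 46.8% in Sema3d and 48% in Sema3e.
Robo4: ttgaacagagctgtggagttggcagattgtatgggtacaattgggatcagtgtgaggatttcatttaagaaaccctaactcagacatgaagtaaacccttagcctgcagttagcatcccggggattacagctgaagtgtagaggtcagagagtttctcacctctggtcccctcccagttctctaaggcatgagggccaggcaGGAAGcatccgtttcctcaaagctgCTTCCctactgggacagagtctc
Sema3g: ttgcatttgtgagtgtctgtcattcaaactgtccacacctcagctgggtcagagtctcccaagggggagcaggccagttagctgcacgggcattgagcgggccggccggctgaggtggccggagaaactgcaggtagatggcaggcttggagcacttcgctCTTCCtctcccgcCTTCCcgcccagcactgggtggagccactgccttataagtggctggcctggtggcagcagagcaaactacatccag
Sema3c: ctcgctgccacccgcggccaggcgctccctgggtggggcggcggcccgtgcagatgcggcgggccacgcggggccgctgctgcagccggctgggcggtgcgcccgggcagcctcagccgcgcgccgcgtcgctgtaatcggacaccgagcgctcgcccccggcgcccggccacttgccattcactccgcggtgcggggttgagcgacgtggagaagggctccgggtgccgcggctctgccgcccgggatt
Sema3d: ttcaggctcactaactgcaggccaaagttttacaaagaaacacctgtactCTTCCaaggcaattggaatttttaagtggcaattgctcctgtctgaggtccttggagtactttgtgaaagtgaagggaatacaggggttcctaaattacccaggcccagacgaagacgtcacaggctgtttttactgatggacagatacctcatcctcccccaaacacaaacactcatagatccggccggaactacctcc
Sema3e: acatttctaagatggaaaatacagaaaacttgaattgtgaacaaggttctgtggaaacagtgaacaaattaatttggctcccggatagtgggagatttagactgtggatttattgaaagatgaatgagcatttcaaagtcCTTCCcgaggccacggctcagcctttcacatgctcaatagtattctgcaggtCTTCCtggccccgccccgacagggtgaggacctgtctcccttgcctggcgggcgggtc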

How the data were processed

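Plate libraries without molecular identifiers had been made from sorted stromal cells of mouse bone at 2 ages, and the 336 young and 325 old cells kept by the authors after their quality limits were used. The deposited table holds raw counts per gene and cell, which the authors made by aligning reads with GSNAP (2015-09-29) to GRCm38.p4 and counting with HTSeq, without regard to strand, on Ensembl 81 genes. Counts of 45771 nuclear genes were summed over the cells of each age and population and scaled to CPM, with exact Poisson intervals for levels, exact conditional binomial intervals for ratios and Clopper-Pearson intervals for shares of cells at 10 CPM or more. Exon lengths came from GENCODE M21 and promoter positions from RefSeq on GRCm38.p6. Labels name no mouse, so each group counted as 1 sample and no test was made. A gene was called by the rule given in the report, a group at 0 was put at 3 counts, and the share of all tested genes that the same rule called is given beside each count of members in the main comparisons. Named with values were members called in any comparison, members at 50 CPM or more in any group and members close to the 2-fold limit. The 4 lists of related genes were co-receptors, intracellular transducers, ephrins with their receptors, and repulsive guidance with FLRT genes. Members and lists were chosen with earlier results of these data known. Alternatives covered the mean of CPM over cells, size factors, thinning to 100000 counts, a pseudocount of 1 CPM, the low-count filter, the call rule, cells set apart by markers and ICGS identity groups. The code was tested on simulated data. Intervals were computed with scipy 1.17.1, tables with pandas 2.3.3 and numpy 2.4.6 under Python 3.11.15, and figures with matplotlib 3.10.9.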

Additional observations from a re-analysis of the deposited data

Results flagged for a closer look

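Opposite directions in different groups drew attention to 3 members, and none of these differences was tested. Slit2 had a log2 ratio of old over young of 1.73 in OPr and -3.70 in MSC-S, a difference of 5.43. Levels were 22.9 and 76.1 CPM in young and old OPr and 9.93 and 0.766 CPM in MSC-S, with the top cell holding 34.4% of the old OPr counts and 78.1% of the young MSC-S counts. Unc5c had 5.07 in mOPr against -7.43 in MSC-L, -2.41 in MSC-S and -1.07 in OPr, differences of 12.5, 7.48 and 6.14. In mOPr it stood at 0.274 CPM in young and 9.21 CPM in old cells, where 3 of 26 cells were at 10 CPM or more and 1 held 50.4% of the counts. In MSC-L it stood at 26.5 CPM in young cells and at 3 counts in old cells, but in all cells of M1 and M2, whatever their sort, at 23.4 and 14.7 CPM. In OPr its ratio was under 2-fold without the 8 cells with hematopoietic markers, as given above, and 3.05 in M5 without them. Slit3 had a log2 ratio of AEC over SEC, in library-number range 3, of -2.15 in young and 1.56 in old cells, a difference of 3.71, but 1 old AEC cell held 61.9% of the old AEC counts and the old ratio was 0.41 without the top cell of each group.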

How the results depend on the processing

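Of 101 recomputed counts of members, 76 stayed within 1.5 times the main count. Without a filter on low genes the counts were 8 in MSC-L (main 3), 10 in MSC-S (2), 19 in OPr (11), 19 in mOPr (10), 3 in AEC (0) and 17 in SEC (2) for age, and 26 for old MSC-L and MSC-S (17), 19 for young OPr and MSC-S (11), 24 for young AEC and SEC (9) and 28 for old AEC and SEC (15), since more genes could be called. No share of all genes is given for this setting, so these counts have no background beside them. With the 2-fold ratio and the filter alone, a looser rule, they were 10 in MSC-L, 14 in MSC-S, 23 in OPr, 18 in mOPr, 12 in AEC and 10 in SEC, and 21 for young OPr and MSC-S. Of all genes tested, that looser rule took 28.2%, 23.7%, 48.3%, 46.5%, 25% and 23.4% in these populations. Between young OPr and MSC-S it took 39.9%. Thinning gave 1 in AEC. Without cells with markers of the other lineage SEC had 1, and the cause was not tested. Identity groups from the clusters in place of sorted populations gave 1 for MSC-L, 7 for OPr and 0 for SEC. They reversed Sema4c in MSC-L (-0.0053), Plxna1 (-0.40), Plxnd1 (-0.78), Sema6d (-0.45) and Slit3 (-0.58) in OPr and Sema3g in SEC (-3.95), and the cause was not tested. Further alternatives were chosen after seeing the data. MSC-L cells of M2 gave 7 members, from 12 young and 23 old cells, and the cause was not tested. Cells outside M1 and M2 gave 6 members in OPr and reversed Plxnd1 (-0.29) and Sema6d (-0.36) there, and Plxna2 (-0.048) and Plxnb1 (-4.87) in mOPr. Cells outside M1 and M2 and without hematopoietic markers, which changes 2 choices together, kept Sema6d in OPr in its direction (0.51) and reversed Plxnd1 (-1.18). Cells of M5, in OPr without hematopoietic markers, reversed Plxna1 (-3.01), Plxnd1 (-5.02), Sema6d (-0.76), Slit3 (-0.40), Sema3d (4.20) and Unc5c (3.05) in OPr and Plxna2 (-0.97), Plxnb1 (-5.13), Sema3c (6.36) and Sema3d (0.40) in mOPr, with 7 to 14 cells per group. Sema3d was below the low-count filter in these OPr cells. SEC cells of E7 gave 0 members and reversed Sema3g (-3.98), and the cause was not tested in these cases either. Without cells with hematopoietic markers Sema4d in OPr reversed (-0.51), and those 8 cells hold its old OPr level as the report gives. Over 891 recomputed ratios of single members, 23 reversed, 383 moved beyond the counting interval, and 826 were still past 2-fold in the main direction. No paired analysis was possible because the number ending a cell's label only counts cells. Differences between mice could not be told apart from differences between ages, since no mouse is named. At the median nuclear depth, 10 CPM is about 4.2 counts, so shares of cells near that level depend on depth, and 7 cells had under 100000 counts. Reads copied by amplification count more than once.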
